A study of Mus musculus with 8 samples.

Results

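The 49 genes described here encode the enzymes that finish the liver's handling of drugs, hormones, bile pigments and reactive lipids: the glutathione transferases (Gst and Mgst), the UDP-glucuronosyltransferases (Ugt), the sulfotransferases (Sult), the carboxylesterases (Ces) and the epoxide hydrolases (Ephx). The rule took every line of the table of ribosome footprints whose gene symbol begins with one of these 6 stems followed by letters or digits. It used names only, but was set with earlier results of these data known. The genes it took make up 49 of the table's 7500. By family they are 15 Gst, 2 Mgst, 13 Ugt, 4 Sult, 13 Ces and 2 Ephx genes, spread over 13 chromosomes. The GENCODE M1 annotation of the mouse genome holds 86 protein-coding genes with such names, and the 37 without a line were not analysed here.

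Livers came from male FVB/N mice that received, from weaning, a torula yeast diet low in selenium. Mice of the 0 Se group had no sodium selenite added to it, and mice of the 0.1 Se group had 0.1 ppm selenium added as sodium selenite, in both cases for 6 weeks. Each diet is represented by 2 mice and each mouse by 2 sequencing libraries, 8 libraries in all, prepared from the mRNA fragments that ribosomes shield from RNase digestion. Each abundance is the authors' average over all libraries of both diets, so it carries no SD, the depth of a library is unknown, and the values of single mice and the difference between diets were not used here. The 2 diets are therefore described together, and levels are compared between genes and families without a test.

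Conjugating enzymes attach a bulky, water-soluble group to a molecule so that it can leave the hepatocyte in bile or blood. Glutathione transferases add the tripeptide glutathione to electrophiles, UDP-glucuronosyltransferases add glucuronic acid to compounds such as bilirubin and steroids, and sulfotransferases add sulfate. Carboxylesterases cleave esters, amides and stored lipids, and epoxide hydrolases open reactive epoxide rings by adding water. Most of these genes arose by tandem duplication, and neighbours can be nearly identical in sequence, which bears on how footprints of about 30 bases can be assigned to them.

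Levels are given as footprint density, which is the authors' average of counts scaled to 1000000 per library (CPM), divided by the counted coding length in units of 1000 bases. For comparison between genes the log2 of this density is set against the median gene of the table, which had 11.3 CPM per 1000 bases. On that scale a value of 0 is the median gene, the interquartile range of all genes ran between -1.57 and 1.73, the top 10% lay above 3.58 and the top 1% above 6.87. Counted length was 60 bases shorter than the annotated coding sequence for 47 of the 49 genes, since codons at both ends were left out of the count. The 2 exceptions were Ephx2, which lacked a further 159 bases beyond these 60, and Gstz1, which lacked a further 165.

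The closest relatives among these genes show what a footprint has to tell apart. In each pair below, the 60 bases of coding sequence that differ most between the 2 genes are printed 5′ to 3′ on the coding strand of the NCBIM37 (mm9) genome, with the differing bases in capitals. These are shown because most of the coding sequence of each pair differs less than they do.

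Ugt1a6a, exon 1 of 5, chr1:90035344-90035403, plus strand: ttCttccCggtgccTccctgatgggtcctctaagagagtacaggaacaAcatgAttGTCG
Ugt1a6b, exon 1 of 5, chr1:90003812-90003871, plus strand: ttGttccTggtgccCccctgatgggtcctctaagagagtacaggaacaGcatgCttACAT
Ugt2b5, exon 6 of 6, chr5:87554305-87554364, minus strand: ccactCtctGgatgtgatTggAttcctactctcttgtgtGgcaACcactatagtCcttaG
Ugt2b38, exon 6 of 6, chr5:87839300-87839359, minus strand: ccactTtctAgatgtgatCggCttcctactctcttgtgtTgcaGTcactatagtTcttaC
Ces3a, exon 6 of 13, chr8:107575666-107575725, plus strand: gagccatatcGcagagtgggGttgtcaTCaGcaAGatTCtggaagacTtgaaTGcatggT
Ces3b, exon 6 of 13, chr8:107610756-107610815, plus strand: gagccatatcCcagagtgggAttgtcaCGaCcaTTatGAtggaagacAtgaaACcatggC
Gstm1, exon 5 of 8, chr3:107819259-107819318, minus strand: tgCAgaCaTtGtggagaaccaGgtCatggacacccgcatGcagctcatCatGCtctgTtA
Gstm3, exon 5 of 8, chr3:107770506-107770565, minus strand: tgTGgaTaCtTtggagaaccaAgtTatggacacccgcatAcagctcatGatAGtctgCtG

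Over their whole coding sequences, Ugt1a6a and Ugt1a6b differed at 26 of 1596 bases, Ugt2b5 and Ugt2b38 at 47 of 1593, Ces3a and Ces3b at 81 of 1716, and Gstm1 and Gstm3 at 69 of 657. Their longest identical stretches ran to 762, 398, 194 and 112 bases respectively, all far longer than a footprint. A footprint was counted by the authors only where it aligned to a single mRNA with up to 2 mismatches, so few or no counts would come from the shared stretches of such genes. How a second, poorer match of a read was treated is not stated.

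The 49 genes together took 26743 CPM, which was 3.12% of the summed CPM of the table. As a group they were translated well above the table's median, with a median log2 density of 4.21 over the median gene (18.5-fold). Of the 49, 43 lay above the median gene and 6 below it. The top 10% of all genes held 29 of them (59.2%), and the top 1% held 5: Mgst1, Gstm1, Gsta3, Ces1c and Ephx2. The footprints were concentrated in few genes, since the 5 most abundant by CPM held 51.4% of the members' total and the 10 most abundant 71.2%.

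The families differed both in how densely a typical member was translated and in how many footprints they took together. By median log2 density over the median gene the order was Ephx (6.25), Mgst (5.58), Ces (4.60), Ugt (4.08), Gst (3.59) and Sult (2.41), but Ephx and Mgst are pairs and Sult has only 4 lines. By summed CPM the order was Ces (1.12% of the table), Mgst (0.563%), Gst (0.562%), Ugt (0.502%), Ephx (0.309%) and Sult (0.0616%). Of the 6 name stems Ces thus held the largest share of footprints and Sult the smallest, but Gst and Mgst together, the enzymes of glutathione transfer, had 9647 CPM (1.13%) and so about as much as the 9612 CPM of Ces. Without its most abundant member, Ces still had 0.716% and stayed first, while Mgst dropped to 0.00116% and passed below Sult, which kept 0.0156%. In all families but Ephx the members differed more than the family medians did: log2 density ranged over 11.03 among Gst genes, 10.21 among Ces, 8.91 between the Mgst pair, 8.48 among Ugt, 5.30 among Sult and 1.25 between the Ephx pair.

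**Figure D1:**
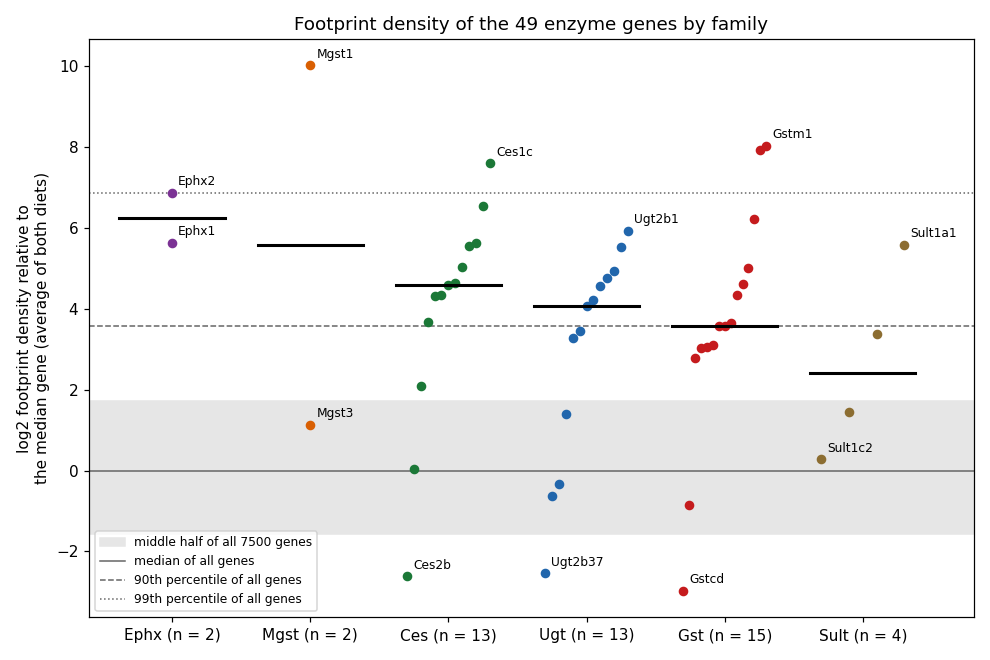
Each point is 1 gene, grouped by family along the horizontal axis, and the vertical axis is log2 footprint density relative to the median gene, averaged by the authors over both diets. Black bars are family medians, and a reader should see that 43 of 49 genes lie above the median gene while 1 member each of Gst, Ugt and Ces lies far below it, at -2.98, -2.54 and -2.61.

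**Figure D2:**
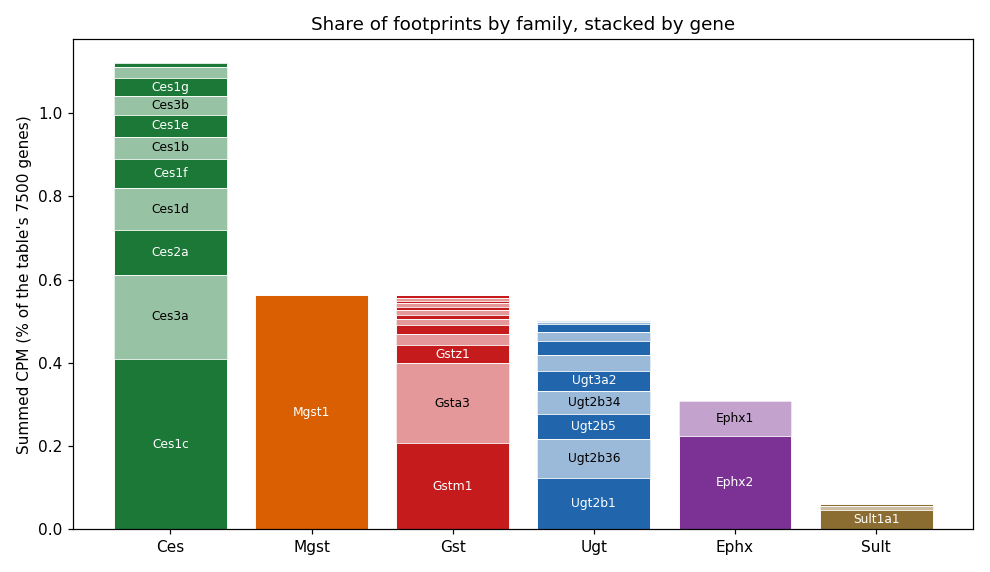
Bars give the summed CPM of each family as a percent of the table's total, stacked by gene with the most abundant at the base. Ces reaches 1.12% through many genes, whereas Mgst reaches 0.563% almost entirely through Mgst1.

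Glutathione transfer was led by the microsomal enzyme Mgst1, a small membrane protein of the endoplasmic reticulum and mitochondria that also reduces lipid hydroperoxides. Mgst1 (chr6:138088837-138105276, plus strand) had 11809 CPM per 1000 bases, or 10.03 on the log2 scale over the median gene, which made it the 9th densest of the 7500 genes. It carried 99.8% of the Mgst footprints. Its relative Mgst3 (chr1:169302097-169323972, minus strand), which takes part in leukotriene chemistry, had 24.6 CPM per 1000 bases, a log2 value of 1.13. The pair thus covered most of the range of the whole set, and none of their 30-base windows matched another gene.

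Among the cytosolic glutathione transferases, 2 genes led per counted base. Gstm1 (chr3:107815173-107820891, minus strand), of the mu class, had 2970 CPM per 1000 bases, and Gsta3 (chr1:21230670-21255442, plus strand), an alpha-class enzyme that conjugates aflatoxin epoxide in mice, had 2730. They held 36.8% and 34.3% of the Gst footprints and lay at 8.04 and 7.92 on the log2 density scale. Gstz1, which isomerizes maleylacetoacetate in tyrosine breakdown, followed at 842 CPM per 1000 bases (log2 6.22), and counting its density over the annotated sequence without shared windows instead gave 5.74. Gstt1, a theta-class enzyme that acts on small halogenated compounds, had 367 CPM per 1000 bases, and Gstm2 had 277.

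Per counted base, the remaining Gst genes formed a middle tier and a low pair. Gstp1, the pi-class enzyme, had 229 CPM per 1000 bases, and Gsta4, which conjugates the lipid aldehyde 4-hydroxynonenal, Gstt2, Gstm3, Gsto1, Gstm4, Gstm7 and Gstt3 ran from 142 down to 77.3. Below them Gsta2 had 6.25 CPM per 1000 bases, and Gstcd, which has a Gst-like domain but is not an established conjugating enzyme, had the lowest density of all 49 at 1.42 (log2 -2.98). By class the medians were close, at 3.66 for Gsta, 3.58 for Gstm and 3.59 for Gstt on the log2 density scale, but each is the value of 1 middle gene. Members ran from -0.85 to 7.92 over 3 Gsta genes, 3.04 to 8.04 over 5 Gstm genes and 2.78 to 5.02 over 3 Gstt genes. The 5 Gstm genes with a line lie in 1 cluster on chromosome 3 and ranged over 5 log2 units, or 32.0-fold, with Gstm1 at the top and Gstm7 at the bottom.

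The UDP-glucuronosyltransferases had no gene in the top 1% but several in the top 10% of the table. Ugt2b1 (chr5:87345663-87355555, minus strand) led with 690 CPM per 1000 bases, followed by Ugt2b36 with 520, Ugt2b5 with 347, Ugt2b34 with 308 and Ugt3a2 with 266. The lead depends on the scale. Per window without an exact copy in another gene, Ugt2b5 (log2 6.46) passed Ugt2b1 (5.92). Per window with no match of up to 2 mismatches, Ugt2b5 (10.53), Ugt2b36 (6.81) and Ugt3a2 (6.24) all passed Ugt2b1 (6.12). That leaves Ugt2b5 30 of its 1504 windows, and both scales assume that shared windows gave no counts. The Ugt2b enzymes glucuronidate steroids, bile acids and many drugs, and their median log2 density over the median gene was 4.77 across 7 genes. The Ugt3a enzymes, which use other sugar donors than glucuronic acid, had a median of 3.92 across the 2 genes. Ugt2a3 lay between these groups at 4.21.

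Ugt1a1, the enzyme that conjugates bilirubin, had 191 CPM per 1000 bases (log2 4.08), and it was the densest of the 3 Ugt1a genes with a line. Ugt1a6b and Ugt1a6a, which conjugate small planar phenols, had 29.7 and 9. The lowest of the family was Ugt2b37 with 1.94 CPM per 1000 bases (log2 -2.54), and Ugt2b38 at 7.30 was also below the median gene. At 2.97 CPM, Ugt2b37 is among 4 of the 49 genes with a log2 CPM under 3, where an average that includes edgeR's prior count is pulled upward.

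Mouse Ugt1a genes are built from separate first exons joined to a common set of later exons, and this structure is visible in their sequences. The last 60 bases of each gene's own first exon and the first 60 bases of the common second exon are printed here from the same genome build, all on the plus strand of chromosome 1.

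Ugt1a1, end of exon 1, chr1:90109387-90109446: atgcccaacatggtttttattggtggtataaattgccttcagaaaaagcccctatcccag
Ugt1a6a, end of exon 1, chr1:90035847-90035906: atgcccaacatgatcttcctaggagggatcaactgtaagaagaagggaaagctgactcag
Ugt1a6b, end of exon 1, chr1:90004315-90004374: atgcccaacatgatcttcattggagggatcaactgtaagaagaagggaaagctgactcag
All 3 genes, start of exon 2, chr1:90111619-90111678: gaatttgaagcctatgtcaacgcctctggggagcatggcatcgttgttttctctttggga

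The first exon holds 870 coding bases in Ugt1a1 and 858 in each of Ugt1a6a and Ugt1a6b, and the common exons hold 738. A footprint on the common exons fits each Ugt1a mRNA equally well, so 45.9% of the windows of Ugt1a1 had an exact copy in another gene. Dividing by the windows without an exact copy instead of the whole counted length moved Ugt1a1 from 4.08 to 4.93, Ugt1a6b from 1.40 to 3.54 and Ugt1a6a from -0.32 to 1.82 on the log2 scale over the median gene. The order of the 3 genes stayed as it was on that scale, and Ugt1a6a crossed from below the median gene to above it. With matches of up to 2 mismatches also left out the order turned, with Ugt1a6b at 5.59, Ugt1a1 at 4.94 and Ugt1a6a at 3.87. On that scale Ugt1a6b and Ugt1a6a each kept only 79 of 1507 windows.

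Among the sulfotransferases, 4 genes of the Sult1 group had a line. Of the 17 annotated Sult genes 13 had none, among them the 6 Sult2a genes on chromosome 7. Levels of genes without a line are not known here. Sult1a1 (chr7:133816379-133819946, minus strand), which sulfates phenols, had 538 CPM per 1000 bases (log2 5.58) and 74.7% of the Sult footprints. Sult1d1, which acts on catecholamines and other phenols, had 117, Sult1b1, which sulfates thyroid hormones, had 30.8, and Sult1c2 had 13.7. Levels of the 4 genes thus fell in steps from 47.7-fold to 1.21-fold over the median gene. Their sequences were distinct, with coding identities of 60.5% to 63.6% between members, and only Sult1d1 had any window close to another gene (0.375%).

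Ester hydrolysis was spread over many genes. Ces1c (chr8:95622914-95655182, minus strand), an esterase secreted into mouse plasma, had 2182 CPM per 1000 bases (log2 7.60) and 36.4% of the Ces footprints. Ces3a, a liver esterase, had 1050 and held 18.1%. Ces2a with 564, Ces1d, which hydrolyses stored triacylglycerol, with 533, and Ces1f with 368 CPM per 1000 bases completed the 5 densest. All 6 Ces1 genes with a line were in the top 10% of the table, from Ces1c down to Ces1g at 226 CPM per 1000 bases. Their log2 densities spanned 3.27, or 9.65-fold, the narrowest range among the 4 clusters that had 5 or more genes with a line.

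The Ces2 genes were less even. Ces2a at 5.64 and Ces2e at 3.67 on the log2 density scale were in the top 10%, Ces2g was at 2.1, Ces2c was at 0.04 and Ces2b was at -2.61. Their median was 2.1, against 4.83 for the Ces1 genes and 5.44 for the pair Ces3a and Ces3b. Ces2b had only 1.85 CPM per 1000 bases, and with Ces2c it sits between Ces2a and Ces2e on chromosome 8. The neighbouring Ces2 and Ces3 genes thus covered 9.15 log2 units, or 568-fold, the widest range of any cluster per counted base. The low end, Ces2b, had a log2 CPM of only 1.57. Per window with no match of up to 2 mismatches, the Ugt2 and Sult1 cluster on chromosome 5 was wider. It ran from -0.4 (Ugt2b37) to 10.53 (Ugt2b5), against -0.3 (Ces2b) to 8.88 (Ces3a) for the Ces2 and Ces3 genes. The value of Ugt2b5 rests on 30 of its 1504 windows, and this scale assumes that shared windows gave no counts.

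Of the epoxide hydrolases 2 genes had a line, and both were dense. Ephx2 (chr14:66703214-66743337, minus strand), the soluble enzyme that hydrolyses epoxides of fatty acids, had 1328 CPM per 1000 bases (log2 6.88). Ephx1 (chr1:182906286-182951035, minus strand), the microsomal enzyme that handles epoxides of drugs and aromatic compounds, had 558 (log2 5.63). Ephx2 held 72.5% of the footprints of the pair. The counted length of Ephx2 differed from the annotation, and the density over annotated unshared windows was 6.67 on the log2 scale, still above Ephx1 at 5.57.

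**Figure D3:**
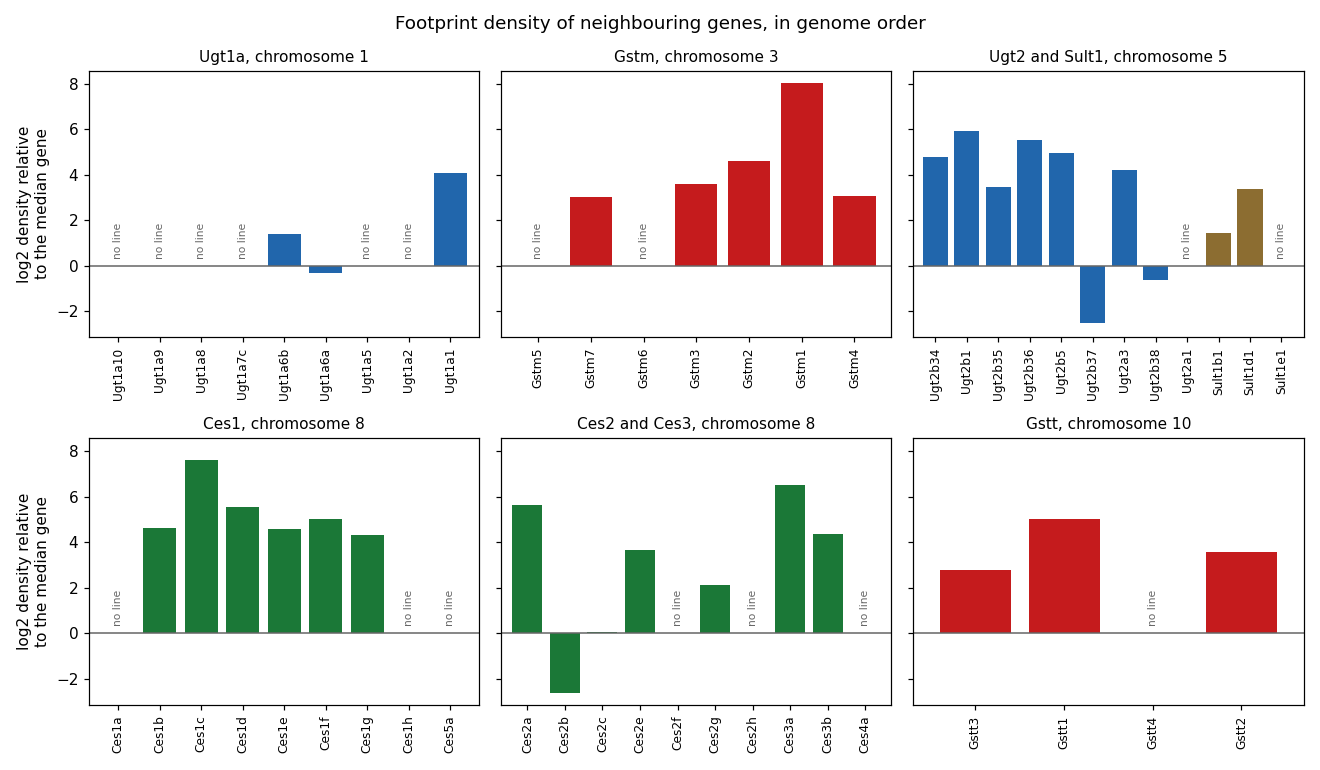
Each panel is a run of neighbouring genes in genome order and bars give log2 footprint density relative to the median gene, with genes that had no line marked as such. From the lowest to the highest bar, the Ces2 and Ces3 panel spans 568-fold and the Ces1 panel 9.65-fold.

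Neighbouring genes did not always share a level. Spread within clusters was not compared with spread between them, and the 6 Ces1 genes with a line all lay between 4.33 and 7.60. The largest cluster, of Ugt2 and Sult1 genes on chromosome 5, holds 12 annotated genes over chr5:87318792-88020636, of which 10 had a line, and these covered 8.48 log2 units or 357-fold. Ugt2b37 at -2.54, with a log2 CPM of only 1.57, lies between Ugt2b5 at 4.94 and Ugt2a3 at 4.21. The Ugt1a cluster on chromosome 1 covered 21.1-fold over 3 genes, the Gstt cluster on chromosome 10 covered 4.72-fold over 3, and the pair Ugt3a1 and Ugt3a2 on chromosome 15 differed 2.41-fold.

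Close sequence did not always go with a common level. Of all pairs within a family, 8 shared over 90% of their coding sequence: 5 Ugt pairs and 3 Ces pairs. The densities of Ugt2b5 and Ugt2b38, with 97.0% identity, differed 47.6-fold per counted base, and those of Ugt2b5 and Ugt2b37, with 94.7% identity, differed 179-fold. Differences were smaller for Ugt1a6a and Ugt1a6b (98.4% identity, 3.30-fold), Ugt2b37 and Ugt2b38 (94.1%, 3.76-fold) and Ugt3a1 and Ugt3a2 (93.3%, 2.41-fold). They were also smaller for Ces3a and Ces3b (95.3%, 4.58-fold), Ces2b and Ces2c (92.1%, 6.29-fold) and Ces1b and Ces1c (90.9%, 7.84-fold). Both larger differences involve Ugt2b5, of whose windows 98.0% fit another gene. Levels of less similar pairs were not compared as a group. In the other families the closest pairs were Gstm1 and Gstm3 (89.5%, 22.1-fold), Sult1a1 and Sult1d1 (63.6%), Ephx1 and Ephx2 (53.7%) and Mgst1 and Mgst3 (51.5%).

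How far such levels can be trusted was measured by sliding a 30-base window over each counted coding sequence and asking whether it fits another gene with up to 2 mismatches. The median member had 42.6% of its windows in another gene, against 0% for the median gene of the 7260 that could be matched to the annotation. Over 50% of the windows were shared in 22 of the 49 members (44.9%), namely 5 Gst, 9 Ugt and 8 Ces genes, against 225 of the 7260 genes (3.10%). In 37 of the 39 members with any shared window, the gene sharing the most was of the same family. Family medians were 70.0% for Ugt, 54.9% for Ces, 12.8% for Gst and 0% for Mgst, Sult and Ephx, so this count rule bears least on the last 3 families.

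The levels of these 22 genes are uncertain, since a rule that keeps only unique alignments leaves a smaller part of their sequence to count on than the counted length says. In the Gst family they are Gsta2, Gstp1, Gstm1, Gstm3 and Gstm2. In the Ugt family they are Ugt2b5, Ugt1a6b, Ugt1a6a, Ugt2b38, Ugt2b37, Ugt3a1, Ugt3a2, Ugt2b36 and Ugt2b35. In the Ces family they are Ces3b, Ces3a, Ces2b, Ces2c, Ces1c, Ces1b, Ces2e and Ces2g. Dividing by the windows with no match of up to 2 mismatches raised the log2 density over the median gene of Ces1c from 7.60 to 9.04, of Ces3a from 6.54 to 8.88, of Gstm1 from 8.04 to 9.92 and of Ugt2b38 from -0.63 to 3.49. For Ugt2b5, where only 30 windows were unshared, the same division gave 10.53 in place of 4.94. This division takes all counts of a gene to come from its unshared windows. It overstates the density of those windows where shared windows also gave counts.

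**Figure D4:**
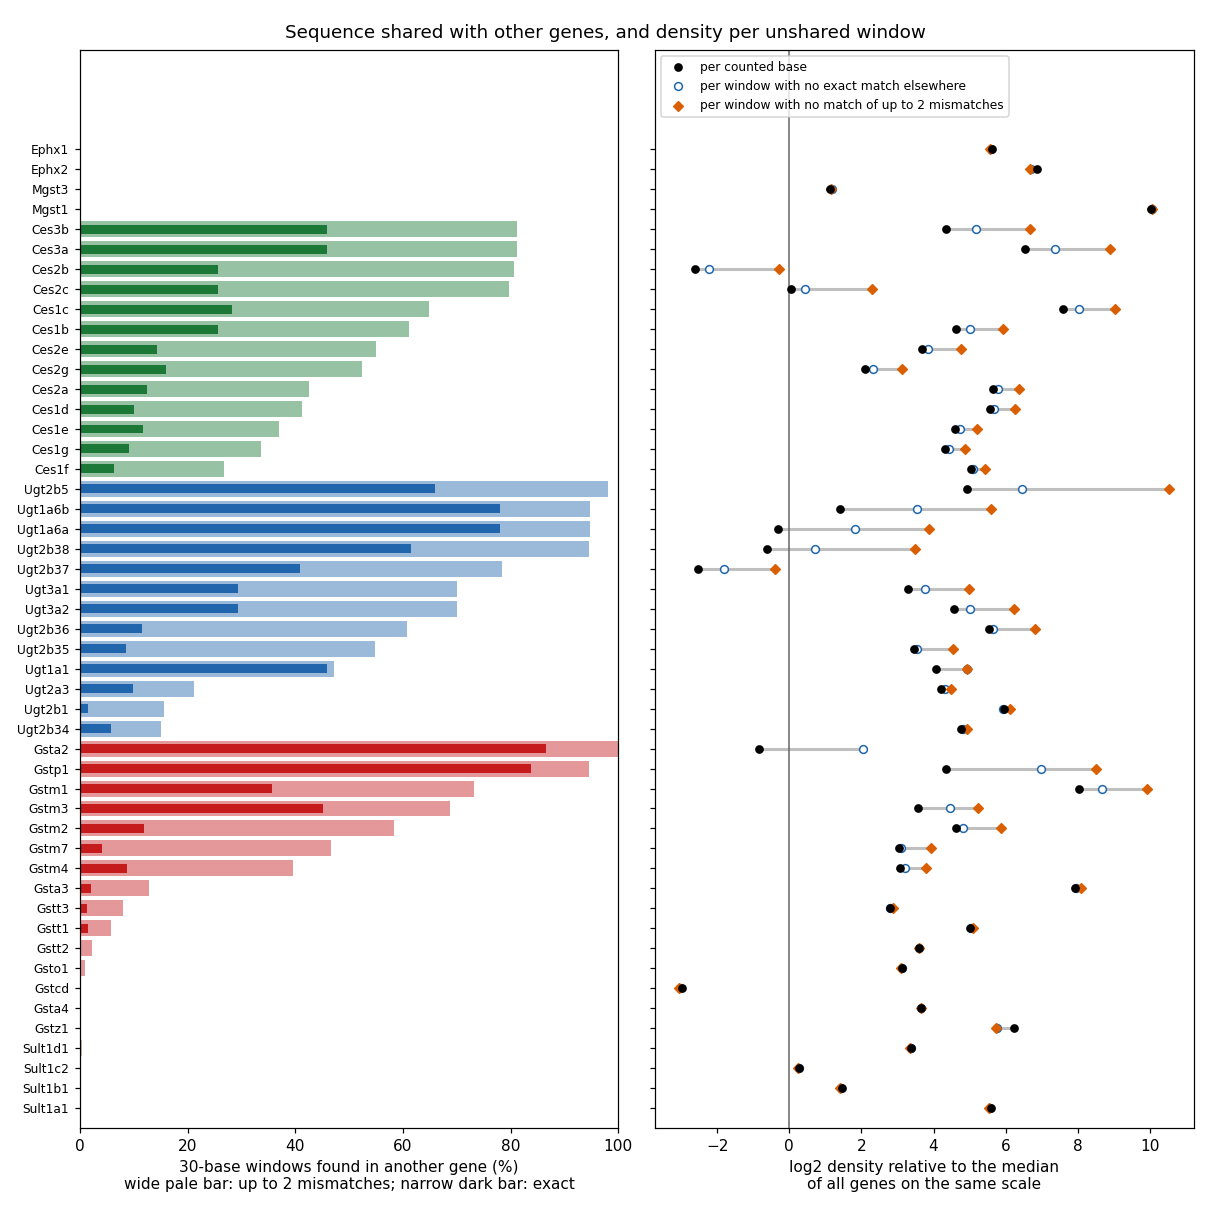
The left panel gives for each gene the percent of its 30-base windows found in another gene, exactly (dark) or with up to 2 mismatches (pale), and the right panel gives its log2 density relative to the median gene per counted base and per unshared window. Genes with long pale bars, such as Ugt2b5 at 98.0% and Gstp1 at 94.5%, move furthest to the right in the second panel, while Sult, Mgst and Ephx genes barely move.

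Gsta2 and Gstp1 are the extreme cases of the Gst family. All of the windows of Gsta2, 580 of 580, fit another gene within 2 mismatches, mostly the predicted gene Gm10639, and 86.6% were exact copies. Gstp1 shared 94.5% of its windows with its neighbour Gstp2, leaving 30 windows free. The most different 60 bases of both pairs are printed below in the same way, to show how few bases separate them.

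Gsta2, exon 4 of 6, chr9:78181650-78181709, minus strand: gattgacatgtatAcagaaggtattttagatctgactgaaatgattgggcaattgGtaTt
Gm10639, exon 4 of 6, chr9:78150493-78150552, plus strand: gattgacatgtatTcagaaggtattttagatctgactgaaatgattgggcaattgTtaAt
Gstp1, exon 5 of 7, chr19:4036694-4036753, minus strand: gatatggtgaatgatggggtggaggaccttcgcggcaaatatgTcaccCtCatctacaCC
Gstp2, exon 5 of 7, chr19:4040988-4041047, minus strand: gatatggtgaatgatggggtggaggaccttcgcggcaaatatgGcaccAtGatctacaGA

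Gsta2 and Gm10639 differed at 10 of 669 coding bases, and Gstp1 and Gstp2 at 12 of 633. Per window without an exact copy elsewhere, Gsta2 moved from -0.85 to 2.05 and Gstp1 from 4.35 to 6.98 on the log2 scale over the median gene. With matches of up to 2 mismatches left out as well, Gstp1 reached 8.51, above Gsta3 at 8.10, and Gsta2 had no window left to divide by. Gsta2 still had 3.80 CPM, so the windows defined here do not cover every footprint the authors counted, and what sets its low density was not tested.

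The genes that supply and surround these enzymes were also mostly dense. A list of 40 such genes, of cofactor synthesis, nuclear receptors, other drug-metabolizing enzymes and transporters, had 34 with a line, 30 of them above the median gene, and a median log2 density of 3.32 over it. The 5 highest were Cyb5 (8.27), an electron donor to cytochrome P450, Gnmt (7.23), a glycine methyltransferase, Slco1b2 (6.86), a hepatic uptake transporter, Cyb5r3 (6.43) and Fmo5 (5.91), a flavin monooxygenase. Among suppliers of the conjugating groups, Ugp2 (5.41) and Ugdh (3.57) make UDP-glucuronic acid, Gclm (5.22), Gclc (4.42) and Gss (2.96) make glutathione, and Papss2 (2.79) and Papss1 (1.24) make the sulfate donor. The cytochrome P450 genes (Cyp), which carry out the oxidation that often comes first, had 45 lines and 3.83% of the summed CPM. Their median was 2.40 on the same scale, below the 4.21 of the 49 genes. Other enzyme groups taken by symbol lay closer or higher: 4.6 for 13 Aldh genes, 4.1 for 11 Hsd genes and 7.4 for 1 Adh gene. The top 10% of all genes held 44.4% of the Cyp, 61.5% of the Aldh and 63.6% of the Hsd genes, against 59.2% of the 49. High density was thus not particular to the 49 genes.

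Markers of liver cell types were read from the same average to check the labelled tissue. Of 10 hepatocyte markers 9 had a line, all but Cps1, with a median log2 density of 10.09 over the median gene and 21.3% of the summed CPM. Markers of Kupffer cells (6 of 8 with a line, median 1.75), endothelial cells (5 of 5, 0.85), stellate cells (5 of 5, -0.94) and cholangiocytes (4 of 5, -2.35) were far lower. None of 4 red blood cell markers and 1 of 3 neutrophil markers had a line. Since only uniquely aligned reads were counted, a missing line does not show that such cells were absent. In whole liver a level reflects all cells together, so many cells of a type and much RNA in each cannot be told apart.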

How the data were processed

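Ribosome footprints of 8 liver libraries (4 mice) were sequenced by the authors. Per the study's methods, they trimmed adapters with the FastX toolkit, discarded ribosomal RNA reads with Bowtie, and counted reads that fitted 1 mRNA with at most 2 mismatches. Each gene was represented by its longest RefSeq isoform (mm9) without 15 codons at the start and 3 at the end. Software versions were not given in the sources used here, nor was the joining of libraries. Deposited by the authors is an edgeR log2 CPM, averaged over all libraries. The study describes a filter that kept genes over 1 CPM in 3 or more samples. Whether every gene over this filter has a line is not known here. The deposited fold changes, p-values and adjusted p-values are the authors' own comparison of the diets and were not used, so the edgeR test planned for counts of single libraries was not run.

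Density was CPM (2 to the power of log2 CPM) per 1000 counted bases, less the median log2 density of all 7500 genes. The table's CPM summed to 85.7% of 1000000. Symbols were matched to GENCODE M1 (NCBIM37) for 7260 genes. Windows of 30 bases were compared with 1 annotated transcript, untranslated parts included, of each gene that has a RefSeq mRNA. Matches had 0 or up to 2 mismatches, and the search was tested on simulated data. Identity was taken from global alignments of coding sequences, in place of the planned protein identity. Promoter sequences were RefSeq's (GRCm38.p6). Python 3.11.15, numpy 2.4.6, pandas 2.3.3, Biopython 1.88 and numba 0.67.0 were used. Named with values are the 5 densest genes and the least dense of each family, all genes of families with 6 or fewer, the most identical pair of each family and genes with over 50% of their windows shared. Other members were named as parts of a class or cluster after their values were seen. The members and gene lists were chosen with earlier results of these data known. Alternatives were the whole coding length, a log2 CPM minimum of 3, a pseudocount of 1 CPM, unshared windows, the mean, no division by length, and leaving out abundant genes.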

Additional observations from a re-analysis of the deposited data

How the results depend on the processing

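Of 63 alternative values, 44 moved by less than 1.5-fold and 19 moved by more. None of the log2 densities among them changed sign, which the percents and counts cannot do. This limit is a fixed cut on the change between processing choices. It does not measure a spread between replicates, which the averaged values do not give. With a log2 CPM minimum of 3, which raises the median of all genes, the median log2 density was 2.65 for Gst, 4.57 for Mgst, 3.13 for Ugt, 1.40 for Sult, 3.60 for Ces and 5.24 for Ephx. Per window with no match of up to 2 mismatches it was 4.51 for Gst, 4.94 for Ugt and 5.42 for Ces. Without division by length it was 2.49 for Gst, 3.82 for Mgst and 1.69 for Sult. Means in place of medians gave 2.74 for Ugt and 3.73 for Ces. Without its most abundant member the summed CPM was 0.356% of the table for Gst, 0.00116% for Mgst, 0.0156% for Sult, 0.716% for Ces and 0.0854% for Ephx. The count of genes above the median gene, 43 of 49 as reported, was 41 of 49 without division by length, 41 of 45 with the minimum and 45 of 48 per window with no match of up to 2 mismatches. The family order by density held under the minimum, the pseudocount, the whole coding length and both window scales. The mean put Gst above Ugt, and without division by length Ces and Ugt passed Mgst.

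No paired analysis was possible because values of single libraries were not used here, and for the same reason leaving out each mouse was not run. Levels of genes under a log2 CPM of 3 are raised by edgeR's prior count. The table does not hold all footprints: 14.3% of 1000000 CPM lies outside the table. Which genes hold that share is not known here, and the median gene and the percents of the table rest on the genes with a line. The window count rests on the GENCODE M1 annotation, not on the RefSeq set of the authors.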

Other observations

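Promoters of 40 of the 49 genes were found in the RefSeq table (GRCm38.p6, 250 bases before to 50 after the start) and searched on both strands for 3 short motifs. The core of the antioxidant response element, TGACNNNGC, to which NRF2 binds in partnership with small MAF proteins, was present in 3 of the 40 genes (7.50%) and in 14.0% of the 27025 genes in the promoter table. The core of the xenobiotic response element, GCGTG, bound by the aryl hydrocarbon receptor, was present in 7 (17.5%) against 35.2%. The letters GTTAAT, from the site of the hepatocyte factor HNF1, were present in 8 (20%) against 8.24%. Gsta3 holds both the antioxidant core and the HNF1 letters, at places that do not overlap. These are matches of letters in a short window and were not tested.

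The 3 genes with the antioxidant core are printed with 15 bases on either side and the 9 motif bases in capitals. Each sequence is on the strand of the gene. They were picked after densities were seen, since Mgst1 (log2 10.03) and Gsta3 (7.92) are among the densest genes of the set. Gstm7, also printed, lay at 3.04, and Gstm1 at 8.04 has the xenobiotic core but not the antioxidant core. Mgst1 holds the motif on the opposite strand.

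Gsta3, chr1:21240449-21240487, plus strand: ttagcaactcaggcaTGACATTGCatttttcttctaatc
Gstm7, chr3:107931720-107931758, minus strand: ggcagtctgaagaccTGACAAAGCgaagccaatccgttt
Mgst1, chr6:138140456-138140494, plus strand: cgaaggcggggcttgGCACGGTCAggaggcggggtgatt

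The HNF1 letters were found in Ces3b, Gsta3, Sult1a1, Sult1d1, Ugt1a1, Ugt1a6a, Ugt2a3 and Ugt3a1. Median log2 density over the median gene was 4.14 for these 8 and 4 for the matched genes without the letters. It was 7.92 for the 3 genes with the antioxidant core and 4.08 for those without. With 3 genes, the first of these is the value of Gsta3 alone. For the xenobiotic core it was 1.45 for the 7 genes with it and 4.33 for those without. None of these differences was tested.

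Codon composition differed between families. The share of G or C at the third position of codons had a median of 68.0% in Gst genes (51.3% to 72.6%) and 46.4% in Ugt genes (41.2% to 59.2%), against 60% over all matched genes. Across the 49 genes this share had a Pearson correlation of 0.18 and a Spearman correlation of 0.10 with log2 density, as a description over genes that share ancestry and libraries.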
